A study of Drosophila melanogaster with 18 samples.

Results

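The genes examined here make, deliver and break down ecdysone, the steroid that times insect moults, and they were followed in whole Drosophila melanogaster larvae with mutations in heterochromatin proteins. The 7 genes were nvd, phm, dib, sad, shd, Cyp18a1 and Npc1a, out of 11983 genes named by the arrays. Each gene was read from probe sets annotated to that gene alone, and where a gene had several, from the one with the highest mean signal. All 7 genes had a probe set. Of these, 5 were bright enough to be tested, meaning a log2 signal of at least 6 on at least 3 arrays, which 8212 genes reached. phm, dib, shd, Cyp18a1 and Npc1a were above that level on all 18 arrays, whereas nvd and sad reached it on 0 of 18 arrays and are given as levels only.

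Total RNA was taken from first-instar larvae about 48 hours after egg laying, with 200 larvae pooled per replicate, and hybridised to 18 one-colour Affymetrix arrays. The mutant groups had 3 arrays each, lettered A to C. HP1a mutant larvae carried HP1a04 over HP1a05, alleles of the gene for heterochromatin protein HP1a, which binds methylated histone H3. The double mutants, called larvae labelled HP1a Pof below, carried HP1a04 PofD119 over HP1a05 PofD119, and Pof encodes a protein that coats chromosome 4. Setdb1 mutant larvae carried Setdb110.1 on both chromosomes and Su(var)3-9 mutant larvae carried the evo over the 06 allele of Su(var)3-9, and each of these genes encodes a histone H3 methyltransferase. Wildtype larvae filled 6 arrays, lettered A to F, and served as the control of every mutant group, so the comparisons with wildtype share those 6 arrays. The labels call the replicates biological, and they give neither the sex of the larvae nor a stage within the instar. Values are log2 signals, where a difference of 1 is a doubling, and array medians ran from 5.93 to 6.03. The number of arrays, not a read depth, limits the precision.

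In flies, cholesterol from food is carried through cells with the help of Npc1a and converted to ecdysone in the prothoracic gland, a small part of the ring gland near the brain. The enzymes of that gland act in sequence: nvd begins with cholesterol, and phm, dib and sad each add a hydroxyl group at a different carbon. Ecdysone is then released, and shd turns it into the active moulting hormone in tissues such as gut and fat body. Cyp18a1 inactivates the active hormone, and its loss prolongs hormone exposure. At this culture temperature, 25 °C, larvae of the collected age are close to the moult to the second instar. Hormone itself was not measured here.

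Several facts of the whole series bear on each value. Wildtype arrays stood apart from every mutant array on the first principal component (55.4% of the variance), and the next (18.7%) set Su(var)3-9 arrays B and C apart. Pof signal was higher, not lower, in larvae labelled HP1a Pof, averaging 8.32 ± 0.29 (SD, n = 3) against 7.49 ± 0.09 (n = 6) in wildtype. Whether the Pof probe set lies in the part altered in PofD119 is not known here. The HP1a gene was lower in HP1a larvae (9.48 ± 0.07) and in larvae labelled HP1a Pof (9.53 ± 0.08) than in wildtype (10.20 ± 0.05). The 3' control for 18S ribosomal RNA ran from 8.95 to 11.11 on mutant arrays and from 12.18 to 12.41 on wildtype arrays, so it moved with every comparison against wildtype below, and its part in the results was not tested. The 3'-minus-5' signal difference of control transcripts, a sign of RNA integrity, averaged 1.64 in HP1a larvae, 1.50 in larvae labelled HP1a Pof, 1.25 in Setdb1 larvae, 1.32 in Su(var)3-9 larvae and 1.67 in wildtype. In whole larvae, fewer cells of a type and less RNA per cell cannot be told apart.

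Genes that mark the prothoracic gland were faint in these whole larvae. Of 7 such markers (nvd, phm, dib, sad, spok, sro and nobo), 3 were at or above log2 6 on every array, namely phm, dib and spok. Their mean over the 7 markers ran from 5.81 to 5.89 in HP1a larvae, 5.74 to 5.89 in larvae labelled HP1a Pof, 5.80 to 5.89 in Setdb1 larvae, 5.73 to 5.86 in Su(var)3-9 larvae and 5.73 to 5.80 in wildtype. These ranges overlapped wildtype for larvae labelled HP1a Pof and for Su(var)3-9 larvae. In HP1a and Setdb1 larvae the lowest array mean (5.805 and 5.801) lay just above the highest of wildtype (5.796). nvd, phm, dib and sad are among the genes studied here, so these means are no separate check on them. The ring gland also holds the corpora cardiaca and corpora allata, each followed by 1 marker. Akh, the adipokinetic hormone of the corpora cardiaca, fell in every mutant group, with changes of -0.62 in HP1a larvae, -0.64 in larvae labelled HP1a Pof, -0.95 in Setdb1 larvae and -1.29 in Su(var)3-9 larvae. jhamt, a juvenile hormone enzyme of the corpora allata, differed from wildtype by -0.27 in HP1a larvae (limma adjusted p = 0.177) and fell (-0.61, -0.68 and -0.62) in larvae labelled HP1a Pof, Setdb1 and Su(var)3-9 larvae, the last call being lost without Su(var)3-9 arrays B and C. The part of these shifts in the results below was not tested.

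**Figure D1:**
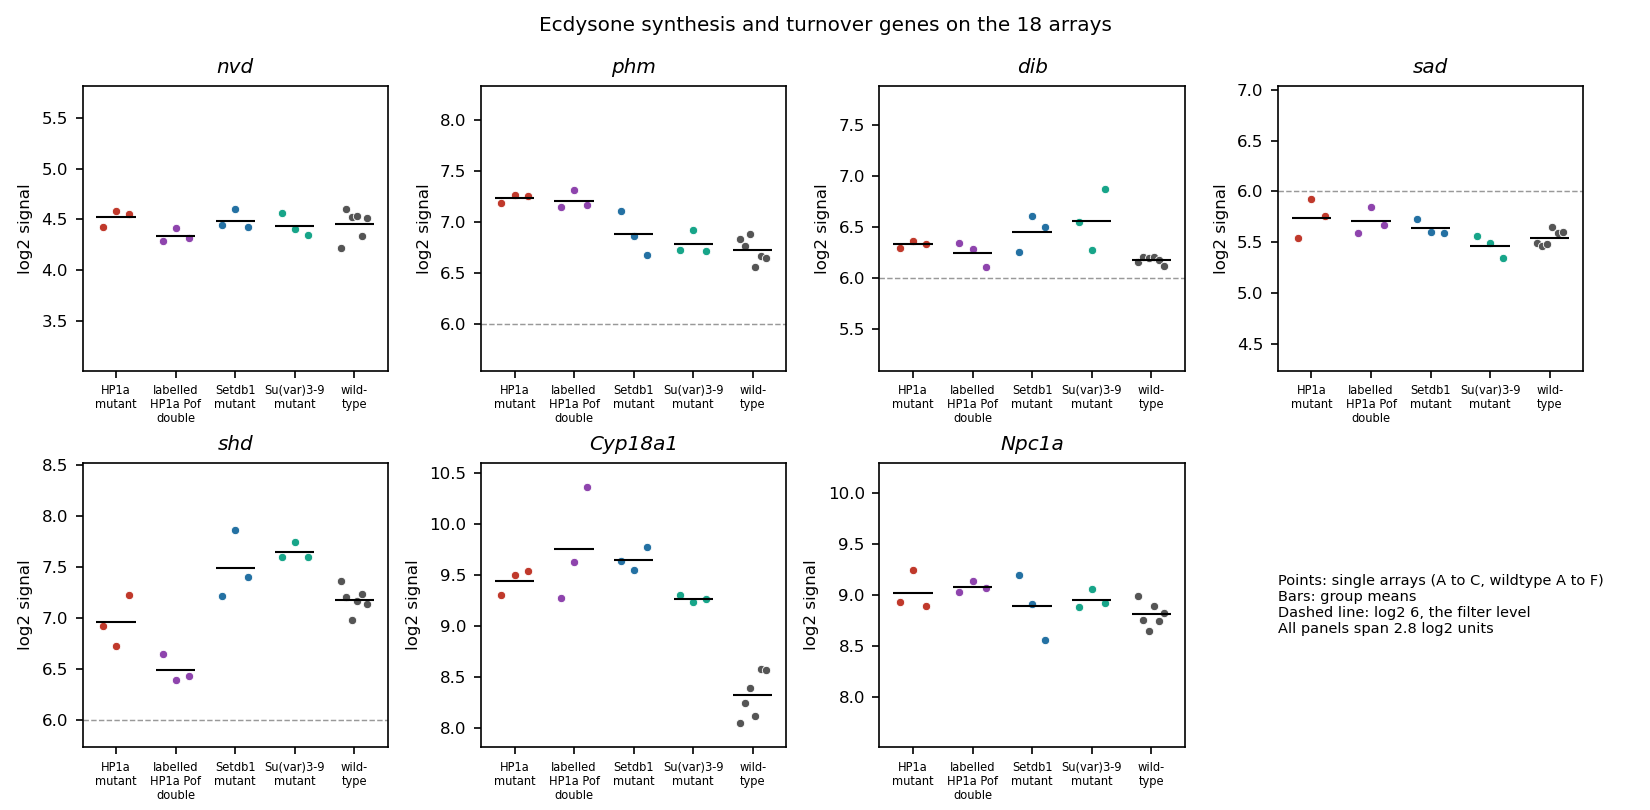
Log2 signal of the 7 genes on every array, with groups along the horizontal axis, points for single arrays, bars for group means and a dashed line at the filter level of log2 6 where it falls within a panel. Cyp18a1 is the panel in which all 12 mutant arrays lie above all 6 wildtype arrays, shd splits the mutant groups in opposite directions, and nvd and sad stay below the filter level.

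Taken over the 5 groups at once, 4 of the 5 tested genes differed by limma's moderated F test, against 83.3% of all tested genes. Adjusted p was 6e-06 for Cyp18a1, 2.98e-05 for shd, 0.00025 for phm and 0.0203 for dib, while Npc1a did not pass (0.209). The share of all genes that passed is close to the share among these 5, so the count does not set them apart from other genes. The spread of the group means differed from gene to gene. It was 1.43 for Cyp18a1 and 1.15 for shd, against 0.51 for phm, 0.39 for dib and 0.27 for Npc1a, with pooled within-group SDs of 0.27, 0.19, 0.13, 0.15 and 0.17 in that order.

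HP1a larvae were compared with wildtype first. Here 2 of the 5 tested genes were called at a limma adjusted p under 0.05, both higher, against 59.1% of all tested genes in either direction, 23.5% called higher and 35.6% lower. The called genes were Cyp18a1 and phm. In larvae labelled HP1a Pof 3 of 5 were called, with Cyp18a1 and phm higher and shd lower, against 60.8% of all genes called, 25.0% higher and 35.8% lower. In Setdb1 larvae 2 of 5 were called, Cyp18a1 and dib, both higher, against 52.5% of all genes called, 17.3% higher and 35.2% lower. In Su(var)3-9 larvae 3 of 5 were called, Cyp18a1, shd and dib, all higher, against 63.9% called, 16.3% higher and 47.6% lower. The share of members called in either direction was therefore no larger than the background in any of the 4 comparisons. Arrays of the mutant group and wildtype did not overlap for 3, 4, 2 and 3 of the 5 genes, against 55.0%, 62.6%, 49.8% and 56.7% of all tested genes, in the same order of groups. Median changes of the 5 genes were 0.21, 0.27, 0.28 and 0.39 for HP1a larvae, larvae labelled HP1a Pof, Setdb1 and Su(var)3-9 larvae, beside medians over all tested genes of -0.06, -0.05, -0.11 and -0.22. Centring every array on its median removed the last shifts and added calls of phm in Setdb1 and Su(var)3-9 larvae, of shd in Setdb1 larvae, and of Npc1a in all but the Setdb1 group, all higher.

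**Figure D2:**
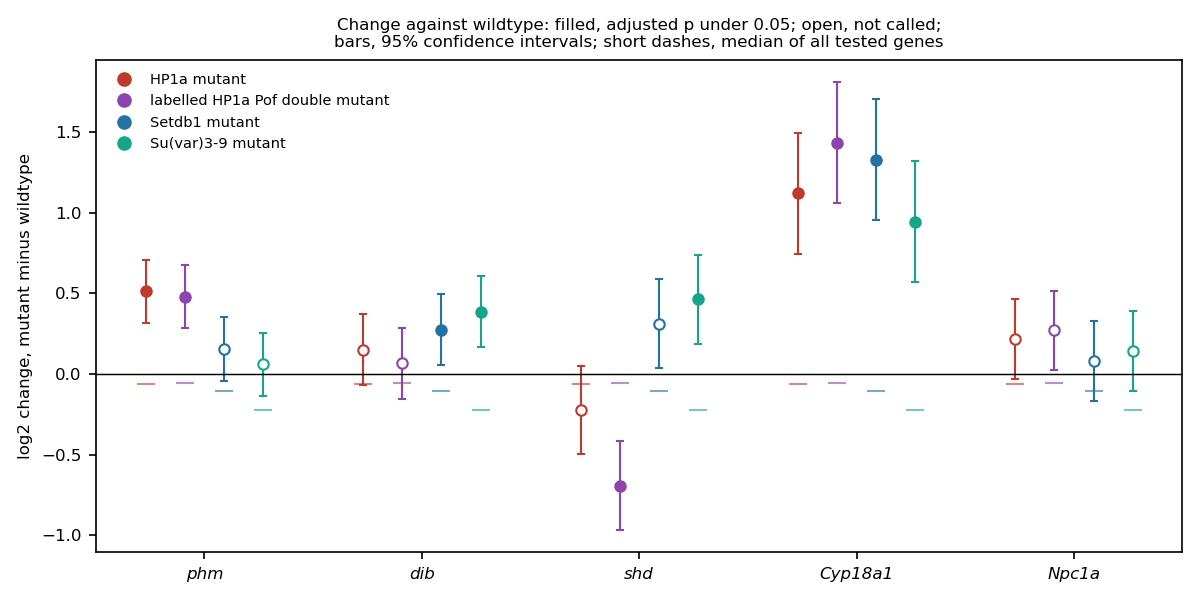
Log2 change against wildtype (vertical axis) of the 5 tested genes in each mutant group, with 95% confidence intervals, filled points for adjusted p under 0.05 and short dashes at the median change of all tested genes. Cyp18a1 lies between 0.94 and 1.43 in all 4 groups, phm is filled in the HP1a group and larvae labelled HP1a Pof, and shd runs from -0.69 to 0.46.

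Delivery of cholesterol was represented by Npc1a, on chromosome arm 2L (10213812 to 10221216 in Release 6 of the assembly), the fly counterpart of a human Niemann-Pick disease gene. Its log2 signal was 8.93, 9.24 and 8.89 in HP1a larvae, 9.03, 9.14 and 9.07 in larvae labelled HP1a Pof, 9.19, 8.91 and 8.56 in Setdb1 larvae and 8.88, 9.06 and 8.92 in Su(var)3-9 larvae, against a lowest, median and highest value of 8.64, 8.79 and 8.99 in wildtype. Larvae labelled HP1a Pof lay just above the wildtype range and the other mutant groups overlapped it. The changes did not pass the test, at 0.21 (95% interval -0.03 to 0.46), 0.27 (0.02 to 0.52), 0.08 (-0.17 to 0.33) and 0.14 (-0.10 to 0.39) for HP1a larvae, larvae labelled HP1a Pof, Setdb1 and Su(var)3-9 larvae. Adjusted p values were 0.125, 0.0558, 0.595 and 0.287 in the same order. With arrays centred on their medians, Npc1a was called higher in HP1a larvae (0.28, limma adjusted p = 0.0438), larvae labelled HP1a Pof (0.35, 0.0149) and Su(var)3-9 larvae (0.37, 0.013). In larvae labelled HP1a Pof it was called in 8 alternatives in all, among them array weights (0.31, 0.00608), the fit of only the compared groups (0.27, 0.00878) and the fits without HP1a array B, Setdb1 array A or C, or wildtype array A.

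The first enzyme of the pathway, nvd, converts cholesterol to its dehydro form. The gene spans 76790 bases of chromosome arm 3L (24324866 to 24401655), in the heterochromatin beside the centromere, and it was the longest of the 7 genes. Its probe set read 4.42, 4.59 and 4.56 in HP1a larvae, 4.29, 4.42 and 4.31 in larvae labelled HP1a Pof, 4.44, 4.60 and 4.42 in Setdb1 larvae and 4.56, 4.41 and 4.35 in Su(var)3-9 larvae, with a lowest, median and highest value of 4.22, 4.52 and 4.61 in wildtype. Every group overlapped wildtype and all values lay below the filter level. The group means spanned 0.18 with a pooled SD of 0.12, so a change of nvd was not detectable at this signal.

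phm, whose enzyme acts before those of dib and sad, lies on the X chromosome at 18685766 to 18688433 and is listed in the reference under the symbol phtm. Its neighbour is Cyp18a1, at 18688538 to 18693042, with 104 bases between the genes, so a gene of hormone synthesis and the gene of hormone breakdown sit side by side. phm read 7.19, 7.27 and 7.26 in HP1a larvae and 7.14, 7.31 and 7.16 in larvae labelled HP1a Pof, against 6.56, 6.71 and 6.88 as the lowest, median and highest of wildtype. Every array of both groups lay above every wildtype array. The rises were 0.51 ± 0.09 (SE, limma adjusted p = 0.000183) in HP1a larvae and 0.48 ± 0.09 (0.000303) in larvae labelled HP1a Pof. Of 3 neuron markers, all above log2 6 on every array, 1 rose in HP1a larvae and 2 in larvae labelled HP1a Pof. In each methyltransferase mutant 1 of them fell. Among all tested genes, 23.5% were called higher in HP1a larvae and 25.0% in larvae labelled HP1a Pof. Called lower were 35.2% in Setdb1 larvae and 47.6% in Su(var)3-9 larvae. elav, an RNA-binding protein of neurons, changed by 0.83 in HP1a larvae, 1.19 in larvae labelled HP1a Pof, 0.09 in Setdb1 larvae and -0.13 in Su(var)3-9 larvae (limma adjusted p = 0.000774, 2.87e-05, 0.702 and 0.549). The other markers, nSyb and brp, differed by 0.01 and -0.04 in HP1a larvae and by 0.36 and 0.03 in larvae labelled HP1a Pof. That nSyb call (limma adjusted p = 0.0426) was lost in 9 alternatives. The falls were of brp, -0.46 in Setdb1 and -0.53 in Su(var)3-9 larvae, with calls lost in 4 and 3 alternatives. The mean of the 3 markers per array ran from 8.04 to 8.51 in HP1a larvae, 8.31 to 8.69 in larvae labelled HP1a Pof, 7.69 to 8.05 in Setdb1 larvae and 7.42 to 8.05 in Su(var)3-9 larvae, against 7.90 to 8.07 in wildtype, and the part of these markers in the phm result was not tested.

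In the methyltransferase mutants phm did not pass the test. Setdb1 arrays read 7.10, 6.86 and 6.67 and Su(var)3-9 arrays 6.72, 6.92 and 6.71, both groups overlapping the wildtype range. The changes were 0.16 (95% interval -0.04 to 0.35, limma adjusted p = 0.172) and 0.06 (-0.14 to 0.26, 0.581). With centred arrays these became 0.27 (adjusted p = 0.0212) and 0.28 (0.0134). The first value leaned on single arrays. Without Setdb1 array C it was 0.26 with an adjusted p of 0.0402, and over all alternatives it ran from 0.04 to 0.27.

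dib lies on chromosome arm 3L (4062292 to 4064551) and overlaps the gene wit by 400 bases, so its signal could include that gene where the probe set covers the overlap. It read 6.29, 6.37 and 6.33 in HP1a larvae, 6.34, 6.29 and 6.10 in larvae labelled HP1a Pof, 6.25, 6.61 and 6.50 in Setdb1 larvae and 6.55, 6.27 and 6.87 in Su(var)3-9 larvae. Wildtype arrays were tight, with a lowest, median and highest value of 6.12, 6.19 and 6.21. All mutant arrays except array C labelled HP1a Pof lay above the wildtype range, by small amounts. The change was 0.39 ± 0.10 in Su(var)3-9 larvae (SE, limma adjusted p = 0.00425) and 0.28 ± 0.10 in Setdb1 larvae (0.036). In HP1a larvae it was 0.15 (95% interval -0.07 to 0.37, 0.221) and in larvae labelled HP1a Pof 0.07 (-0.15 to 0.29, 0.604).

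The dib calls were fragile. With the replicate letter as a block the Setdb1 change was 0.27 with a limma adjusted p of 0.138, and it also missed the threshold without Setdb1 array B (0.20, 0.176) or C (0.25, 0.112) and without wildtype array A, E or F (0.0536, 0.0522 and 0.0591). The Su(var)3-9 change was 0.23 without array C (0.046), and with array weights it was 0.14 (0.0657).

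sad lies on chromosome arm 3R (11877235 to 11879754) and overlaps its neighbour CG6962 by 53 bases. Its signal was 5.54, 5.93 and 5.76 in HP1a larvae, 5.59, 5.85 and 5.67 in larvae labelled HP1a Pof, 5.73, 5.61 and 5.59 in Setdb1 larvae and 5.56, 5.49 and 5.34 in Su(var)3-9 larvae, against 5.46, 5.54 and 5.66 as the lowest, median and highest of wildtype. Each mutant group overlapped wildtype, and the highest array, HP1a array B, stayed below the filter level. The group means spanned 0.28 with a pooled SD of 0.12.

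shd, which activates ecdysone outside the gland, showed opposite directions in different mutants. The gene lies on 3L at 14614458 to 14622205. Its log2 signal was 6.92, 6.73 and 7.22 in HP1a larvae and 6.65, 6.39 and 6.43 in larvae labelled HP1a Pof, against 6.98, 7.19 and 7.37 as the lowest, median and highest of wildtype. All 3 arrays of larvae labelled HP1a Pof lay below every wildtype array, and HP1a array C lay within the wildtype range. The fall in larvae labelled HP1a Pof was -0.69 ± 0.13 (SE, limma adjusted p = 0.000252), a level 0.619 times that of wildtype. In HP1a larvae the difference was -0.22 (95% interval -0.50 to 0.05, 0.152), and without array C it was -0.36 (0.043). Over all alternatives the HP1a difference ran from -0.36 to -0.08.

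In the methyltransferase mutants shd lay on the other side of wildtype. Setdb1 arrays read 7.21, 7.86 and 7.41 and Su(var)3-9 arrays 7.59, 7.74 and 7.59. All Su(var)3-9 arrays were above the wildtype range, and Setdb1 array A was within it. The rise was 0.46 ± 0.13 in Su(var)3-9 larvae (limma adjusted p = 0.00554). In Setdb1 larvae the difference was 0.31 (95% interval 0.04 to 0.59), which missed the threshold at 0.0538 and passed it without array A (0.45, 0.0137). Over all alternatives the Setdb1 difference ran from 0.13 to 0.45. With Su(var)3-9 arrays B and C left out, the remaining array gave 0.41 (adjusted p = 0.126), its spread being assumed to equal that of the other groups. A fall in larvae labelled HP1a Pof together with a rise in Su(var)3-9 larvae was called for 80 of the tested genes, 0.974%.

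Markers of the tissues in which shd acts moved as well. Of 4 gut markers, all above log2 6 on every array, 4 fell in HP1a larvae and in larvae labelled HP1a Pof, and 3 fell in each of the other mutant groups, where the call of mag in Su(var)3-9 larvae (-0.63, limma adjusted p = 0.0163) was lost with centred arrays and without Su(var)3-9 array A. Their mean signal per array ran from 9.63 to 9.93 in HP1a larvae, 9.48 to 9.73 in larvae labelled HP1a Pof, 9.86 to 10.37 in Setdb1 larvae and 10.30 to 10.76 in Su(var)3-9 larvae, against 11.60 to 11.92 in wildtype. The mean was below the wildtype range on every mutant array, although 1 of the 4 markers, Jon65Aiii, ran up to 13.98 in Setdb1 larvae and 14.01 in Su(var)3-9 larvae, against 13.95 to 14.04 in wildtype. Of 4 fat body markers, 2 were tested and 1 fell and 1 rose in each group. Only 1 of the 4 was at or above log2 6 on every array. The mean of the 4 per array ran from 7.69 to 9.28 in Su(var)3-9 larvae, against 7.64 to 7.81 in wildtype. It was 7.55 to 7.71 in HP1a larvae, 7.51 to 7.66 in larvae labelled HP1a Pof and 7.64 to 7.74 in Setdb1 larvae. Beside these marker counts, 35.6%, 35.8%, 35.2% and 47.6% of all tested genes were called lower in HP1a larvae, larvae labelled HP1a Pof, Setdb1 and Su(var)3-9 larvae. Called higher were 23.5%, 25.0%, 17.3% and 16.3%, in that order. The part of either marker list in the shd result was not tested.

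Cyp18a1, the inactivating enzyme, was higher in every mutant group. Its log2 signal was 9.30, 9.50 and 9.53 in HP1a larvae, 9.27, 9.63 and 10.37 in larvae labelled HP1a Pof, 9.63, 9.55 and 9.77 in Setdb1 larvae and 9.30, 9.23 and 9.26 in Su(var)3-9 larvae, against a lowest, median and highest value of 8.04, 8.32 and 8.57 in wildtype. None of the 12 mutant arrays overlapped the wildtype range, and the lowest mutant array lay 0.66 above the highest wildtype array. The rise was 1.12 ± 0.18 in HP1a larvae (SE, limma adjusted p = 5.34e-05), 1.43 ± 0.18 in larvae labelled HP1a Pof (3.83e-06), 1.33 ± 0.18 in Setdb1 larvae (1.59e-05) and 0.94 ± 0.18 in Su(var)3-9 larvae (0.000238). As folds these were 2.18, 2.70, 2.51 and 1.92. For non-overlap with wildtype in either direction, the shares of all tested genes were 55.0%, 62.6%, 49.8% and 56.7% in the same order. The share of genes with all 12 mutant arrays above wildtype is not given here. Of 3 markers of trachea and epidermis, 2 were tested, and they moved in opposite directions. Ddc, an enzyme of cuticle hardening, rose by 1.64 to 1.83 over the mutant groups. btl, a receptor of tracheal cells, changed by -0.83 to -0.63, and all changes of both genes were called. The shares of all tested genes called were 59.1%, 60.8%, 52.5% and 63.9% in HP1a larvae, larvae labelled HP1a Pof, Setdb1 and Su(var)3-9 larvae. ple stayed below log2 6 on every array. The mean of the 3 markers per array was 5.97 to 6.56 over the mutant groups and 5.80 to 5.94 in wildtype, and their part in the Cyp18a1 result was not tested.

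Among the 4 comparisons, larger rises than that of Cyp18a1 were seen for 4.82%, 3.39%, 3.81% and 5.93% of tested genes in HP1a larvae, larvae labelled HP1a Pof, Setdb1 and Su(var)3-9 larvae. Calls of a rise in all 4 mutant groups were made for 672 genes, 8.18% of those tested, and Cyp18a1 was the only one of the 5 tested members among them. Cyp18a1 was called higher against wildtype under every alternative run. The mutant groups themselves were not separated by it: the largest of their differences, 0.49 between larvae labelled HP1a Pof and Su(var)3-9 larvae, had a limma adjusted p of 0.0582 and passed without array A of the first group (0.73, 0.00829).

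Cyp18a1 and shd each had a further probe set with lower signal, which served as a second reading of the same RNA. For Cyp18a1 it read 9.10, 9.65 and 9.06 in HP1a larvae, 8.85, 9.52 and 9.96 in larvae labelled HP1a Pof, 9.45, 9.10 and 9.29 in Setdb1 larvae and 9.13, 8.85 and 9.00 in Su(var)3-9 larvae, against 7.29, 7.53 and 7.83 as the lowest, median and highest of wildtype. All mutant arrays were again above all wildtype arrays. The rises were larger than on the probe set used, at 1.71, 1.89, 1.73 and 1.44 for the groups in that order (limma adjusted p = 2.02e-06, 5.7e-07, 3.32e-06 and 1.17e-05).

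The further probe set of shd was near or below log2 6. It read 5.24, 5.54 and 5.36 in HP1a larvae, 5.30, 5.46 and 4.93 in larvae labelled HP1a Pof, 5.73, 5.97 and 6.03 in Setdb1 larvae and 5.96, 6.40 and 6.29 in Su(var)3-9 larvae, against 5.39, 5.57 and 5.77 in wildtype. The Su(var)3-9 arrays were above the wildtype range, and the other groups overlapped it. Its changes were -0.18, -0.33, 0.35 and 0.65 for the 4 groups in that order, with limma adjusted p of 0.223, 0.0312, 0.0271 and 0.000276. The directions were those of the probe set used, but the fall in larvae labelled HP1a Pof was smaller (-0.33 against -0.69), and the Setdb1 rise, not called on the other probe set, passed the threshold here.

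**Figure D3:**
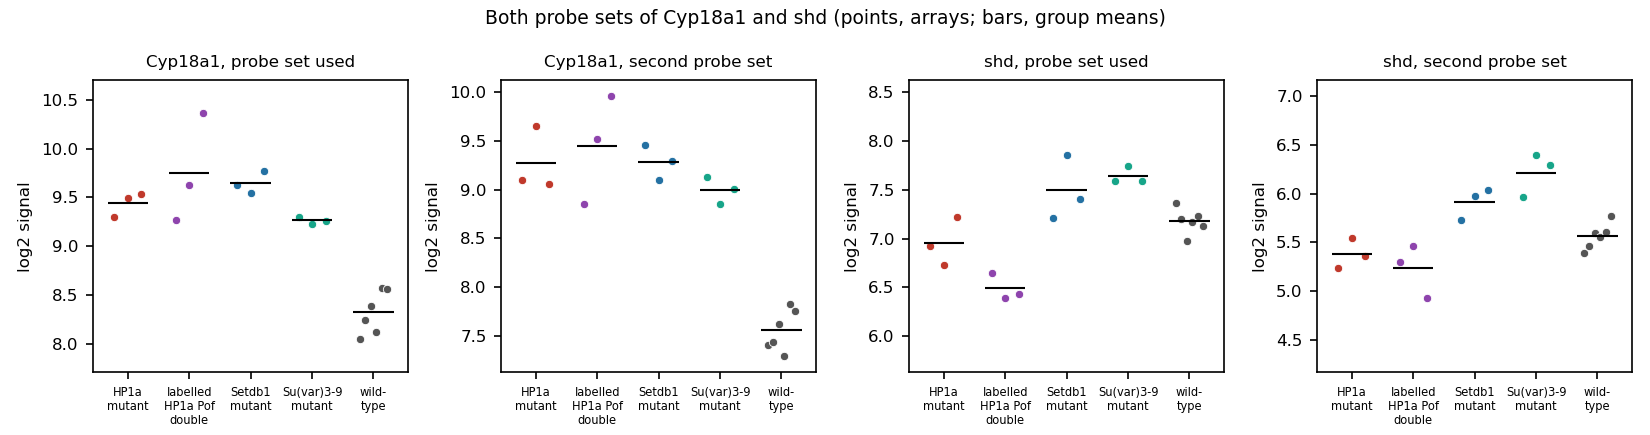
Log2 signal (vertical axis) of both probe sets of Cyp18a1 and shd by group, with points for single arrays and bars for group means. Both Cyp18a1 probe sets separate all mutant arrays from wildtype, and both shd probe sets place the Su(var)3-9 arrays highest and larvae labelled HP1a Pof lowest by group mean.

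Direct comparisons between mutant groups separated phm and shd. HP1a larvae had 2 of 5 genes called against Setdb1 larvae, where 18.5% of all tested genes were called. phm was higher by 0.36 ± 0.11 (SE, limma adjusted p = 0.0293) and shd lower, at -0.54 ± 0.15 (0.022). Neither call was firm. The phm difference missed the threshold when any 1 HP1a array or Setdb1 array B or C was left out (0.0552 to 0.114). The shd difference had an adjusted p of 0.0548 with the replicate letter as a block, and missed the threshold without HP1a array A or B or Setdb1 array B (-0.52, -0.42 and -0.35, with adjusted p of 0.0665, 0.0824 and 0.122).

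Against Su(var)3-9 larvae, HP1a larvae again had phm higher, by 0.45 ± 0.11 (limma adjusted p = 0.00425), and shd lower, at -0.69 ± 0.15 (0.00281), while 40.1% of all tested genes were called. No array overlapped between these groups for either gene, and the share of all tested genes without overlap in this comparison is not given here. In fits without Su(var)3-9 arrays B and C the values were 0.51 (0.0552) and -0.64 (0.105).

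Larvae labelled HP1a Pof gave the widest differences for shd. Against Setdb1 larvae shd was -1.004 ± 0.15 (limma adjusted p = 0.000199), a level 0.499 times as high, and phm was higher by 0.33 ± 0.11 (0.0337), with 27.0% of all genes called. The phm call was lost when any 1 array labelled HP1a Pof or Setdb1 array B or C was left out (adjusted p = 0.0536 to 0.147). Against Su(var)3-9 larvae shd was -1.15 ± 0.15 (3.85e-05), phm was higher by 0.42 ± 0.11 (0.00495) and dib was -0.32 ± 0.12 (0.0385), so that 3 of 5 were called beside 47.6% of all genes. The groups overlapped for dib, and with array weights its difference was -0.05 (limma adjusted p = 0.629). The dib call was also lost in the fit of only these groups (-0.32, 0.176) and with wildtype arrays A to C only (0.071). Leaving out Su(var)3-9 array C (-0.17, 0.232) or A (-0.33, 0.0586) lost it too. So did leaving out array B (-0.34, 0.0621) or C (-0.25, 0.141) of larvae labelled HP1a Pof.

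Larvae labelled HP1a Pof differed from HP1a larvae in 0 of the 5 genes by limma, with 0.731% of all tested genes called. At an unadjusted limma p under 0.05 the count was 1, shd, with a difference of -0.47 ± 0.15 (SE, limma adjusted p = 0.305). For shd, larvae labelled HP1a Pof and HP1a larvae did not overlap, and the share of all tested genes without overlap is not given here. Setdb1 and Su(var)3-9 larvae also differed in 0 of 5 genes by limma, with 0 at an unadjusted p under 0.05 and 27.4% of all genes called. The Cyp18a1 difference between those groups was 0.39 with a 95% interval of -0.05 to 0.82.

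Ordering the groups by mean level shows which neighbours differ. phm ran from HP1a larvae (7.24) and larvae labelled HP1a Pof (7.20) through Setdb1 (6.88) and Su(var)3-9 larvae (6.78) to wildtype (6.72), and the step between larvae labelled HP1a Pof and Setdb1 larvae was the only one past the threshold. For shd the order was Su(var)3-9 (7.64), Setdb1 (7.49), wildtype (7.18), HP1a (6.96) and larvae labelled HP1a Pof (6.49), with no single step past the threshold. For Cyp18a1 it was larvae labelled HP1a Pof (9.76), Setdb1 (9.65), HP1a (9.44), Su(var)3-9 (9.27) and wildtype (8.32), and only the last step passed. For dib and Npc1a no step between neighbours passed.

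Among all tested genes, those whose array profile lay nearest to Cyp18a1, each taken relative to its wildtype mean, were emp, Gasp and spz5. Their root-mean-square differences from Cyp18a1 over the 18 arrays were 0.17, 0.20 and 0.21 log2 units, beside a median of 1.13 over all tested genes. emp changed by 1.21, 1.30, 1.36 and 1.04 in HP1a larvae, larvae labelled HP1a Pof, Setdb1 and Su(var)3-9 larvae. For shd the nearest profiles were ci, CG18180 and Cyp6a16, each at 0.23 beside a median of 0.57. All points share the same arrays and normalization, and the match is a description.

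Of 9 further synthesis and sterol transport genes, 7 were on the array and 3 were tested, spok, Npc2a and Start1. In the main fit, none of these was called higher in a mutant group. spok, a cytochrome P450 of the prothoracic gland, differed from wildtype by -0.39, -0.29, -0.03 and -0.28 in HP1a larvae, larvae labelled HP1a Pof, Setdb1 and Su(var)3-9 larvae, none past the threshold (limma adjusted p = 0.0682, 0.158, 0.892 and 0.174). Npc2a, a sterol carrier that works with Npc1a, fell by 0.50 in Setdb1 larvae (0.000133). In Su(var)3-9 larvae it differed by 0.15 (0.118), and it was called higher there with centred arrays (0.38, limma adjusted p = 0.00298), quantile normalization (0.30, 0.0129), array weights (0.20, 0.00539) and without Su(var)3-9 array A (0.26, 0.0142). Start1, a sterol transfer protein, fell in HP1a larvae (-0.21, 0.0185) and Su(var)3-9 larvae (-0.27, 0.00409), and both calls were lost with centred arrays, the first also without HP1a array A or C and the second without Su(var)3-9 arrays B and C.

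Of 9 genes that regulate the gland, 6 were tested. In HP1a larvae 1 rose and 3 fell, in larvae labelled HP1a Pof 3 rose and 3 fell, in Setdb1 larvae 2 fell and in Su(var)3-9 larvae 3 fell, with 0 rising in either methyltransferase mutant. That is 4, 6, 2 and 3 of 6 genes called, beside 59.1%, 60.8%, 52.5% and 63.9% of all tested genes, among which falls also outnumbered rises. The counts moved with the setting. In larvae labelled HP1a Pof the 3 rises were 1 with the replicate letter as a block, 0 with wildtype arrays A to C only and 1 without array C of that label. One of them, vvl (0.45, limma adjusted p = 0.049), a gland transcription factor, was lost in 15 alternatives. The HP1a rise was lost without HP1a array A, and without Su(var)3-9 array A that group had 6 lower. Smox, which relays activin signals that the gland needs to respond to its brain hormone, fell in all 4 groups, with changes of -1.72, -1.85, -2.02 and -1.92 in HP1a larvae, larvae labelled HP1a Pof, Setdb1 and Su(var)3-9 larvae. Its level was 7.60 ± 0.17, 7.47 ± 0.05, 7.30 ± 0.09 and 7.40 ± 0.20 in the mutant groups (SD, n = 3 each) against 9.32 ± 0.06 in wildtype (n = 6). babo, the receptor in that pathway, also fell in all 4 groups, with changes of -0.38, -0.35, -0.38 and -0.65 (limma adjusted p = 0.00109, 0.00203, 0.00139 and 7.54e-06).

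Of 4 other transport and turnover genes, 3 were tested, and none was called higher except under quantile normalization, which gave 1 in larvae labelled HP1a Pof. Oatp74D, the importer that brings ecdysteroid into cells, had differences of 0.02 in HP1a larvae, 0.26 in larvae labelled HP1a Pof and -0.08 in Setdb1 larvae, none of them called. E23, an ABC transporter reported to lower the hormone response, fell, with changes of -0.49, -0.75, -1.18 and -1.46 in HP1a larvae, larvae labelled HP1a Pof, Setdb1 and Su(var)3-9 larvae (limma adjusted p = 0.0281, 0.00187, 5.39e-05 and 4.09e-06). The first of these calls was lost in the blocked fit (-0.57, limma adjusted p = 0.052), with wildtype arrays A to C only, and without HP1a array B or C or wildtype array B. Atet, a transporter of ecdysone in gland vesicles, fell, with changes of -0.46, -0.44 and -0.50 in HP1a larvae, larvae labelled HP1a Pof and Su(var)3-9 larvae (0.00798, 0.0102 and 0.00446), the first call being lost without HP1a array B or C and the last with centred arrays or without Su(var)3-9 arrays B and C.

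The hormone receptor and the genes it controls moved in both directions. Of 21 such genes, 15 were tested. Calls were made for 8, 8, 6 and 10 of the 15 in HP1a larvae, larvae labelled HP1a Pof, Setdb1 and Su(var)3-9 larvae, beside 59.1%, 60.8%, 52.5% and 63.9% of all tested genes, so the counts do not set the list apart. HP1a larvae had 4 higher and 4 lower, larvae labelled HP1a Pof 6 higher and 2 lower, Setdb1 larvae 2 higher and 4 lower, and Su(var)3-9 larvae 2 higher and 8 lower. The last counts became 6 higher and 7 lower with centred arrays and 2 higher and 3 lower without Su(var)3-9 arrays B and C. With the replicate letter as a block HP1a larvae had 2 higher and 4 lower. Median changes of the list were 0.09, 0.19, -0.01 and -0.45 in that order of groups.

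EcR, the receptor subunit that binds the hormone, rose by 1.21 in HP1a larvae, 1.37 in larvae labelled HP1a Pof, 1.14 in Setdb1 larvae and 0.82 in Su(var)3-9 larvae (limma adjusted p = 6.45e-06, 1.36e-06, 1.89e-05 and 0.000236). Its mean was 7.50 ± 0.33, 7.67 ± 0.29, 7.43 ± 0.13 and 7.12 ± 0.12 in those groups (SD, n = 3 each), against 6.29 ± 0.22 in wildtype (n = 6). ImpE2, an ecdysone-inducible gene of imaginal discs, rose by 1.59 in larvae labelled HP1a Pof and 1.60 in Setdb1 larvae (0.00346 and 0.00421), and differed by 0.85 in HP1a larvae (0.0872) and 0.88 in Su(var)3-9 larvae (0.0725). ImpE3, named for the same induction, fell in all 4 groups, with changes of -1.02, -1.03, -1.35 and -1.67 for HP1a larvae, larvae labelled HP1a Pof, Setdb1 and Su(var)3-9 larvae (0.00385, 0.00332, 0.000544 and 5.62e-05). Eip71CD, another ecdysone-induced gene, fell, with changes of -0.93, -1.28 and -1.25 in HP1a larvae, larvae labelled HP1a Pof and Su(var)3-9 larvae, and differed by -0.04 in Setdb1 larvae (adjusted p = 0.885). Hr3, a nuclear receptor of the hormone cascade, fell in HP1a larvae (-0.59, limma adjusted p = 0.00435), Setdb1 larvae (-0.99, 8.72e-05) and Su(var)3-9 larvae (-1.27, 5.27e-06), and differed by -0.34 in larvae labelled HP1a Pof (0.0726).

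**Figure D4:**
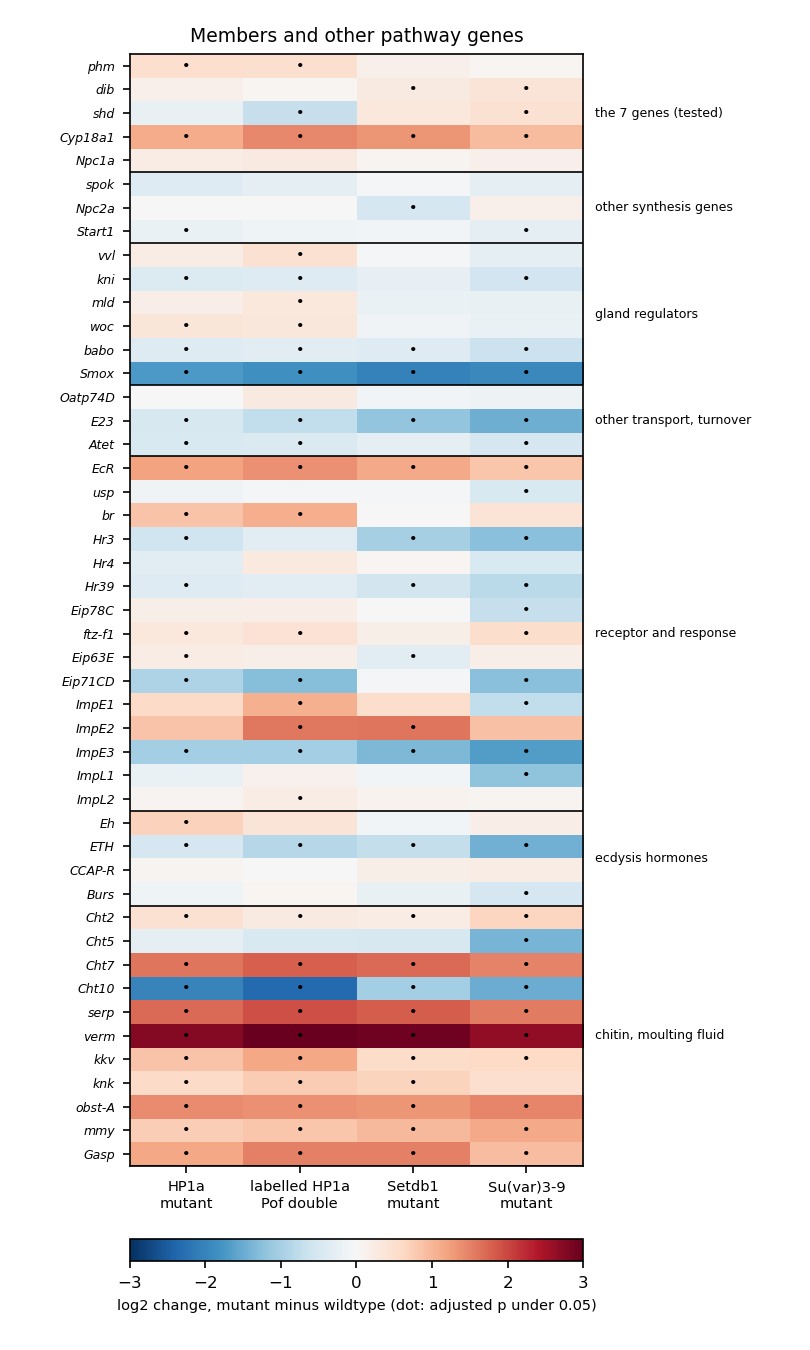
Log2 change against wildtype (colour) of the 5 tested members and of the tested genes of 6 related lists (rows) in the 4 mutant groups (columns), with dots where the adjusted p was under 0.05. Cyp18a1, EcR, serp, verm and Gasp are higher in every column, while Smox, E23, ImpE3 and ETH are lower in every column.

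Ecdysis hormones and cuticle genes are used around a moult. Of 8 ecdysis hormone genes, 4 were tested. ETH, the hormone that triggers ecdysis behaviour, fell, with changes of -0.51, -0.86, -0.71 and -1.43 in HP1a larvae, larvae labelled HP1a Pof, Setdb1 and Su(var)3-9 larvae (limma adjusted p = 0.00502, 6.52e-05, 0.000506 and 4.14e-07). Eh, eclosion hormone, rose by 0.69 in HP1a larvae (0.00171), and Burs, a subunit of the tanning hormone, fell by 0.50 in Su(var)3-9 larvae (0.0178), a call lost with centred arrays.

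Genes of chitin and moulting fluid mostly rose. Of 12, 11 were tested, and 9 were higher and 1 lower in each of HP1a larvae, larvae labelled HP1a Pof and Setdb1 larvae, with 8 higher and 2 lower in Su(var)3-9 larvae. Over all tested genes 23.5%, 25.0%, 17.3% and 16.3% were called higher and 35.6%, 35.8%, 35.2% and 47.6% lower, in that order of groups. Median changes of the chitin and moulting fluid genes were 0.86, 1.16, 0.98 and 0.93. The chitin deacetylase genes led these rises, verm by 2.76, 2.97, 2.93 and 2.67 and serp by 1.70, 1.93, 1.82 and 1.57 in the groups in that order. Both Cht10 and Cht7 are chitinase genes, and each moved one way in every mutant group. Cht10 fell, with changes of -2.02, -2.32, -1.02 and -1.48 in the same order (limma adjusted p = 6.11e-06, 1.09e-06, 0.00326 and 0.000115), and the last call was lost without Su(var)3-9 arrays B and C. Cht7 rose by 1.60, 1.79, 1.71 and 1.48 (5.52e-06, 1.41e-06, 4.91e-06 and 1.15e-05).

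Cuticle protein genes of the Cpr, Lcp and Twdl families were counted in the same way, beside the same shares of all tested genes. Of 77 tested, 54, 49, 57 and 60 were higher and 6, 8, 6 and 6 lower in HP1a larvae, larvae labelled HP1a Pof, Setdb1 and Su(var)3-9 larvae. Without Su(var)3-9 arrays B and C the last counts were 44 and 3. Of 5 salivary glue genes, which mark the third instar, Sgs3, Sgs4, Sgs7 and Sgs8 reached log2 6 on 0 arrays. Sgs5 reached it on 6 arrays and rose by 0.40, 0.32 and 1.09 in HP1a larvae, larvae labelled HP1a Pof and Su(var)3-9 larvae (limma adjusted p = 0.00678, 0.0223 and 7.97e-07), with 0.06 in Setdb1 larvae (0.672), and the part of that shift in the results was not tested.

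**Figure D5:**
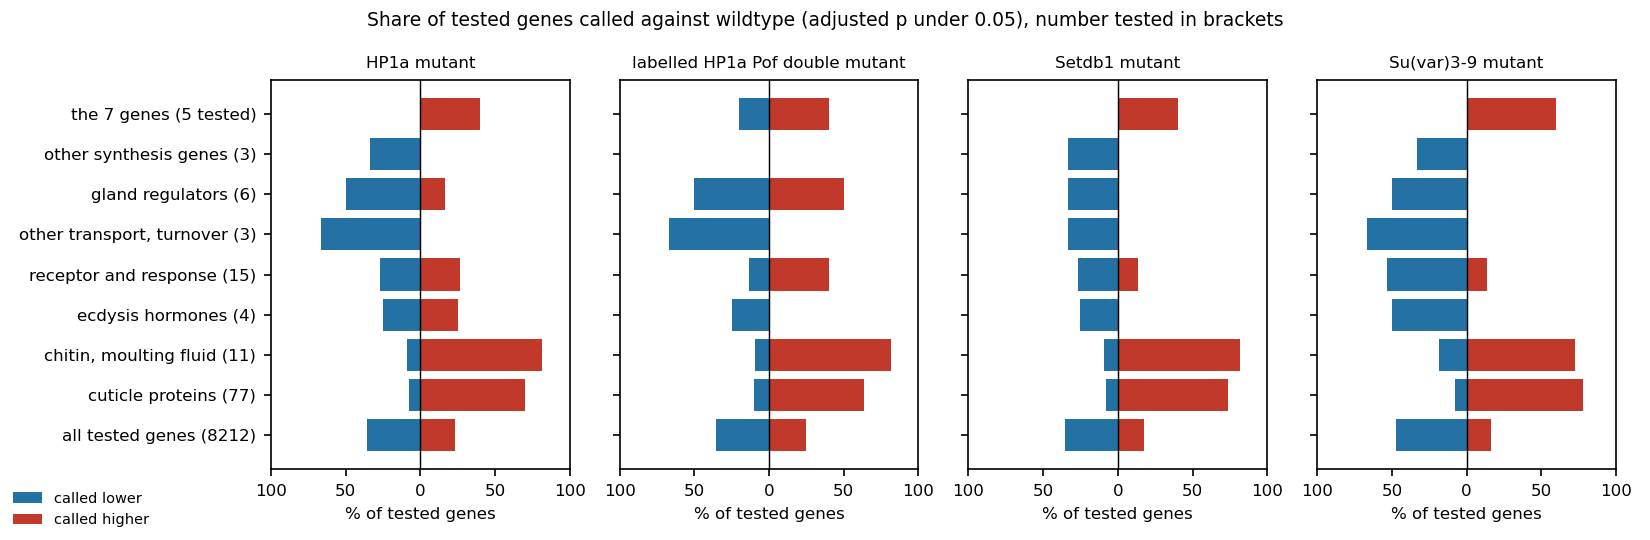
Share of tested genes called higher (right of 0) and lower (left of 0) against wildtype, in percent, for the 7 genes, 7 related lists and all tested genes, with 1 panel per mutant group. The lists of chitin and cuticle genes extend furthest to the right in all 4 panels, and the lists have between 3 and 77 tested genes.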

How the data were processed

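The values analysed are log2 probe set signals as deposited. Per the submitters' processing notes the authors made them with RMA. Its version and settings, and the genome build, are not stated in the labels or files used here. Replicates were pools of 200 larvae and were not averaged before deposit. Probe sets were assigned through the platform annotation: of 18952, 13647 named 1 gene, 402 several, 4720 none and 183 were controls. Names of 13544 matched RefSeq genes of Release 6, the source of all positions, and phm was matched by gene ID because its symbol is shared.

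The 5 groups entered 1 linear model in limma 3.58.1 (R 4.3.3) with 13 residual degrees of freedom, moderated variances and Benjamini-Hochberg adjustment over 8212 genes, and genes were called at an adjusted p under 0.05. The procedure was tested on simulated data in which far fewer genes changed than were called here, so that test does not cover changes this broad. All 7 members are named, and of each related list up to 3 called genes per comparison with wildtype, by size of change. The members and lists were chosen with earlier results of these data known.

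Replicate letters entered as a block in an alternative only. Residuals of same-letter arrays correlated above 0.1 for every letter in 6 comparisons: HP1a, larvae labelled HP1a Pof and Setdb1 larvae against wildtype (lowest values 0.204, 0.133 and 0.198), larvae labelled HP1a Pof against HP1a and Setdb1 larvae (0.423 and 0.283), and HP1a against Setdb1 larvae (0.271). The 4 comparisons with Su(var)3-9 larvae did not meet this (0.0286, -0.0536, -0.01 and -0.22). Whether a letter marks a shared batch is not stated in the labels. Further alternatives were other filters, centring, quantile normalization, the mean of probe sets, array weights, a variance trend, fewer arrays or groups, and, chosen after seeing the data, the second probe set of Cyp18a1 and shd.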

Additional observations from a re-analysis of the deposited data

Results flagged for a closer look

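The second probe sets of Cyp18a1 and shd lie outside the main measurement. The signal above wildtype on them drew attention: for Cyp18a1 the second probe set was higher by 1.71 in HP1a larvae, 1.89 in larvae labelled HP1a Pof, 1.73 in Setdb1 larvae and 1.44 in Su(var)3-9 larvae, with no overlap between any mutant group and wildtype. For shd it was higher by 0.65 in Su(var)3-9 larvae, again with no overlap, and by 0.35 in Setdb1 larvae, where arrays overlapped. In HP1a larvae it was -0.18 and in larvae labelled HP1a Pof -0.33 (limma adjusted p = 0.0312), both below wildtype. Within the mutant groups there are only 3 arrays each, too few for a test of single outlying arrays, and no wildtype array stood out for any of the 7 genes.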

How the results depend on the processing

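Of the recomputed changes of single members, 1374 kept direction and side of the threshold, 31 newly passed it, 44 no longer did and 21 changed sign, none of the 21 called. Against wildtype, Cyp18a1 in all mutant groups and phm in HP1a larvae and larvae labelled HP1a Pof, with the fall of shd in the larvae of that label, were called in every alternative that tested them. Counts of members called moved with the scale. With arrays centred, Setdb1 larvae had 4 and Su(var)3-9 larvae 5 called against wildtype, and quantile normalization gave 5 for Su(var)3-9 larvae. Of all 8212 genes, centring called 4280 in Setdb1 and 4750 in Su(var)3-9 larvae, and quantile normalization called 4783 in Su(var)3-9 larvae. A filter at log2 8 left 2 members tested and gave 1 called in each comparison with wildtype and in the F test, and 0 in the HP1a and HP1a Pof comparisons with Setdb1 and Su(var)3-9 larvae. That filter left 5284 genes. Of these, 3414, 3502, 2988 and 3565 were called in HP1a, HP1a Pof, Setdb1 and Su(var)3-9 larvae against wildtype, and 4630 in the F test.

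With the replicate letter as a block, 1 member was called for Setdb1 larvae against wildtype and 1 for HP1a against Setdb1 larvae, both where the letters pair the arrays, and no other member's call changed in the paired comparisons. For larvae labelled HP1a Pof against Su(var)3-9 larvae, where letters do not pair them, the block lost dib (-0.32, adjusted p = 0.0792) and added Cyp18a1 (0.49, 0.0338). The block also turned phm in Su(var)3-9 larvae against wildtype to -0.038. Wildtype arrays A to C alone gave the same -0.038, and 1 member called for Setdb1 larvae against wildtype and for HP1a against Setdb1 larvae. For Setdb1 larvae against wildtype, the block called 3838 and wildtype arrays A to C alone 3424 of all 8212 genes.

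Array weights gave 0 called for HP1a against Setdb1 larvae and 1 for larvae labelled HP1a Pof against Setdb1 larvae. Fits of only the compared groups gave 0, 1 and 1 for HP1a against Setdb1, HP1a against Su(var)3-9 and HP1a Pof against Setdb1. Without Su(var)3-9 arrays B and C, HP1a against Su(var)3-9 gave 0 and HP1a Pof against Su(var)3-9 gave 1. Leaving out single arrays gave 1 to 3 members called for Setdb1 larvae against wildtype, 0 to 2 for HP1a against Setdb1 and 1 to 2 for HP1a Pof against Setdb1. For Setdb1 larvae against wildtype, those fits called 3545 to 4542 of all 8212 genes. For comparisons between mutant groups, no count over all genes is given under any alternative. A drop in members called there is therefore not set apart from a drop over all genes.

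Changed signs were all of small differences. Npc1a became -0.083 (centred), -0.049 (quantile) and -0.075 (array weights) in HP1a against Su(var)3-9, -0.017 (centred) in HP1a Pof against Su(var)3-9 and 0.0083 (without Su(var)3-9 arrays B and C) in Setdb1 against Su(var)3-9. phm became -0.017 (centred) and -0.013 (array weights) in Setdb1 against Su(var)3-9. Array weights turned dib to 0.0064 in HP1a and 0.14 in Setdb1 against Su(var)3-9, and Cyp18a1 to -0.023 in HP1a Pof against Setdb1. When single arrays were left out, Npc1a ranged from -0.076 to 0.24 in Setdb1 larvae against wildtype, -0.0093 to 0.17 in HP1a Pof against HP1a, -0.028 to 0.29 in HP1a against Setdb1, -0.041 to 0.13 in HP1a against Su(var)3-9 and -0.22 to 0.098 in Setdb1 against Su(var)3-9. phm ranged from -0.0067 to 0.098 in Su(var)3-9 larvae against wildtype and -0.017 to 0.20 in Setdb1 against Su(var)3-9, dib from -0.26 to 0.042 in that last comparison, and Cyp18a1 from -0.20 to 0.35 in HP1a Pof against Setdb1. Npc2a in Su(var)3-9 larvae against wildtype became -0.0502 without Su(var)3-9 arrays B and C. The cause of these changes was not tested. Signal limits the rest: nvd and sad stayed below the filter level, so no change of either could be tested.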
